A study of Mus musculus with 24 samples.

Results

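The microglia and macrophage genes described here are 31 named genes of the brain's resident phagocytes, and all 31 were present among the 24421 gene names of the per-library tables. Microglia are the macrophages of the brain parenchyma. They depend on signalling through the receptor Csf1r, survey the tissue with purinergic and chemokine receptors, and clear debris through the Trem2 and Tyrobp receptor complex and through complement C1q. Border macrophages of the meninges, perivascular spaces and choroid plexus share much of this programme and are known for Mrc1, Cd163, Pf4, F13a1 and Ms4a7. None of these genes is a known marker of astrocytes, the cells that were sorted here.

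The libraries came from cells that had been sorted by fluorescence out of brainstem, cortex, hippocampus and olfactory bulb. The mice were C57BL6 and 20 weeks old. The libraries labelled knockout were from NFIAfl/fl; Aldh1l1-CreER; Aldh1l1-GFP mice, in which a recombinase under the Aldh1l1 promoter is directed to astrocytes. Controls were NFIAfl/fl; Aldh1l1-GFP, so that both genotypes carried the floxed Nfia alleles and the GFP reporter that marks cells with Aldh1l1 promoter activity. There were 3 libraries in each of the 8 groups of region and genotype, 24 in all. No label ties a library to an animal, so p-values measure the spread between libraries, which may be technical in part. Levels are normalised read counts on a scale set jointly over the 24 libraries, and log2 fold changes were taken after adding 5 to each level.

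Promoters are shown for 5 genes. C1qc, C1qb, Cx3cr1 and Ctss are those, among the genes with a matched promoter, that followed the rest of the set most closely from library to library. P2ry12 was the gene that passed the limma test between control regions. Each is 300 bases around the start site from RefSeq on GRCm38.p6, the assembly of mm10. Capitals mark the letters GAGGAA on either strand, a purine-rich core of the kind bound by PU.1, the ETS factor of myeloid cells, and the longer GAGGAAGT where present.
C1qc, chr4:136892865-136893164, minus strand: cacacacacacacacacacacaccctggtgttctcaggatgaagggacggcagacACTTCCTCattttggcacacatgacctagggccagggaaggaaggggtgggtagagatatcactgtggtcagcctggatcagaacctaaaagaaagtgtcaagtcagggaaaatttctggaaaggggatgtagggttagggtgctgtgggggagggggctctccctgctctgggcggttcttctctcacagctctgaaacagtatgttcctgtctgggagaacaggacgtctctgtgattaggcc
C1qb, chr4:136886151-136886450, minus strand: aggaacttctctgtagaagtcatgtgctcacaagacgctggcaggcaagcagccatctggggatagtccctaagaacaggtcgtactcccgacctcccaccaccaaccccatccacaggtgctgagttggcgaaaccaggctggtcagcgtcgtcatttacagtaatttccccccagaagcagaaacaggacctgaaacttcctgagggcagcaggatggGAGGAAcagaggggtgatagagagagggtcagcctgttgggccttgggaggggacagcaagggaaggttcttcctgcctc
Cx3cr1, chr9:120068247-120068546, minus strand: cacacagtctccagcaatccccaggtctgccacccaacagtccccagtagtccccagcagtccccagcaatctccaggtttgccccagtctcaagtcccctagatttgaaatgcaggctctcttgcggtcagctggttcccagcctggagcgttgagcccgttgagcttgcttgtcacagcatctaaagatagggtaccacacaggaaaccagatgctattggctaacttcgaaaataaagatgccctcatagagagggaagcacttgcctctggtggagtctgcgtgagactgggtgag
Ctss, chr3:95526536-95526835, plus strand: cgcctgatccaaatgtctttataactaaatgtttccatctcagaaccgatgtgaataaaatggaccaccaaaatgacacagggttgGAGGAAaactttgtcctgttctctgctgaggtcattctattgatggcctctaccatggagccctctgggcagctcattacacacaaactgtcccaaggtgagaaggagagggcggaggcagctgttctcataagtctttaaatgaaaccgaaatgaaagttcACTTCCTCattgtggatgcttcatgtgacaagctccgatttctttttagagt
P2ry12, chr3:59262936-59263235, minus strand: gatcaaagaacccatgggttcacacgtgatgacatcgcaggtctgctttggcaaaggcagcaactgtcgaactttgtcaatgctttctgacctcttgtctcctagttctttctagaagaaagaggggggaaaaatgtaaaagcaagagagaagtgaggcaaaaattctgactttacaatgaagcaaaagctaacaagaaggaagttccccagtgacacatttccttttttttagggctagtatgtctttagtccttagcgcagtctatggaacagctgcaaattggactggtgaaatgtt
Promoters of this table were matched for 24 of the 31 genes, 27 promoters in all. GAGGAA was found in 18 of the 27 (66.7%), against 28.3% of all 32851 promoters of the same length. GAGGAAGT, which contains GAGGAA, was found in 5 of the 27 (18.5%), those of C1qc, Cd53, Ctss, F13a1 and Pf4, against 3.20% of all promoters. The windows of Cx3cr1 and P2ry12 held neither, as their lack of capitals shows. A match is a match of letters in this window and not a measured binding site.

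Recovered reads ranged from 1090777 in the brainstem library labelled knockout 3 to 24297573 in the hippocampal library labelled knockout 1. Nfia, the targeted gene, averaged 7975 ± 558 in libraries labelled knockout and 4515 ± 481 in controls of olfactory bulb (SD, n = 3 each), and lay above every control of its region in all 12 libraries labelled knockout. Its counts are summed over all exons and do not show whether 1 of them was deleted, so that directions below rest on the labels, against which this gene goes. Astrocyte genes were far above the phagocyte genes in every library: Slc1a3, a glutamate transporter, averaged 2992 per kilobase of exon and Aqp4, a water channel, 2120.5. Summed markers of lymphocytes stayed between 0 and 40.0, those of neutrophils between 0 and 97.2 and those of red blood cells between 4.63 and 73.4. Of these markers, Elane and Ltf of neutrophils had 0 reads in every library. S100a8 and S100a9, also of neutrophils, had reads in the cortical and brainstem groups labelled knockout and none in the other groups. Ms4a1 of B cells had 0 in all 3 libraries of most groups, whereas Cd79b, also of B cells, had reads in most groups. The ribosomal RNA gene Rn45s took 0.966% to 3.33% of reads in the olfactory bulb and hippocampal libraries, except for 20.8% in the olfactory bulb library labelled knockout 3. It took 13.5% to 25.6% in cortex and brainstem, so that olfactory bulb and hippocampus shared a low range and cortex and brainstem a high one.

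All 31 genes were detected, and 29 had reads in every library. Per kilobase of exon, the highest mean level was that of Ctss, a lysosomal protease, at 442. It was followed by the complement gene C1qb at 339, the signalling adaptor Tyrobp at 285, the lysozyme gene Lyz2 at 219.6, the Fc receptor chain Fcer1g at 203 and the ADP receptor P2ry12 at 183. The lowest were Cd163, a haemoglobin scavenger receptor, at 6.70, Ptprc, which encodes CD45, at 2.49 and Ms4a7 at 1.29. Ms4a7, a membrane protein of border macrophages, had 0 reads in 4 libraries, and Cd74, the invariant chain of antigen presentation, in 1. All 31 passed the filter on low values, a level of at least 20 in at least 3 libraries, that left 12759 genes tested. Ms4a7 was at the edge of it, with a highest level of 26.2. Reads of Itgam, an integrin chain, are uncertain, since 68.7% of its exon bases are shared with the readthrough gene model Gm49368. The strand of counting is not stated, and P2ry12 and P2ry13 lie inside Med12l, and Gpr34 inside Cask, on the other strand. Lyz1, the close paralog of Lyz2, had a highest level of 28.6, against 572 for Lyz2.

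The summed level of the 31 genes differed more between libraries of a group than between most groups. In olfactory bulb it was 3955, 2884 and 2812 in libraries labelled knockout, against 7135, 8143 and 2982 in controls. The 3 libraries labelled knockout and control 3 were low, and controls 1 and 2 were high, so that the groups overlapped. In hippocampus it was 7133, 7536 and 3299 in libraries labelled knockout, against 10465, 10769 and 3191 in controls. The library numbered 3 was the low one in both hippocampal groups. In cortex the sums were 7111, 4356 and 6035 in libraries labelled knockout and 7193, 4521 and 5677 in controls, which span nearly the same range. In brainstem they were 3230, 4854 and 8246 in libraries labelled knockout and 5357, 3839 and 6732 in controls, again overlapping. The lowest library had the same number in both genotypes of olfactory bulb, hippocampus and cortex, but not of brainstem. Over all 24 libraries the sum ranged from 2812 to 10769, a 3.83-fold range. As a share of recovered reads this was 0.0448% (95% Wilson interval 0.0430% to 0.0466%) in the olfactory bulb library labelled knockout 3 and 0.223% (0.220% to 0.227%) in hippocampal control 1. These intervals cover counting error only. In these bulk libraries fewer phagocytes and less RNA per phagocyte cannot be told apart.

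**Figure D1:**
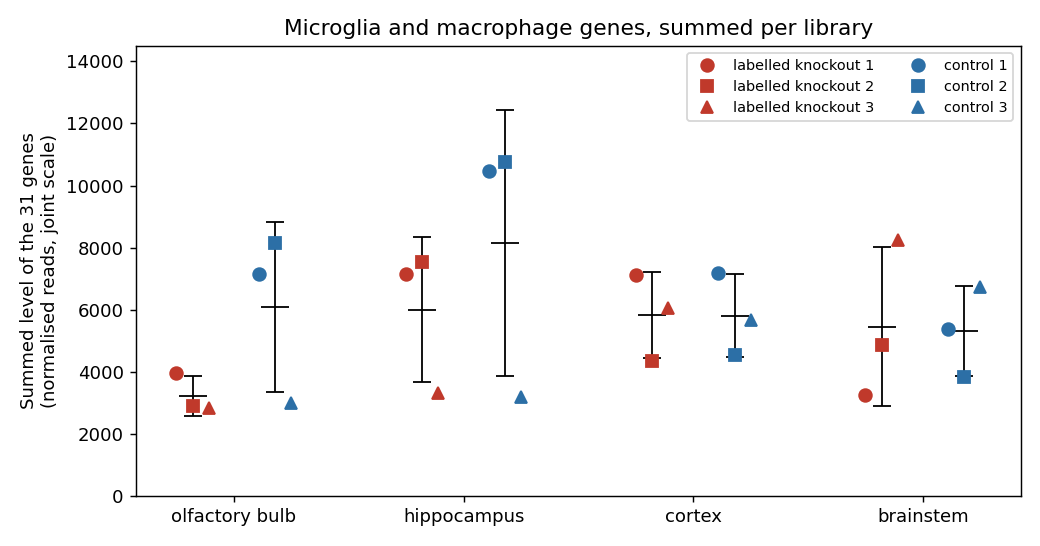
Summed level of the 31 genes (normalised reads, joint scale) for each of the 24 libraries by region, libraries labelled knockout in red and controls in blue, with the marker shape giving the library number and black bars the mean and SD of 3. Olfactory bulb control 3, at 2982, and hippocampal control 3, at 3191, lie far below the other controls of their regions.

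The genes moved together from library to library. With the mean of each group removed, Pearson's r between 2 of the 31 genes had a median of 0.64 over 465 pairs, and 463 pairs were above 0. Of the pairs, 323 were above 0.5, and the lowest r was -0.07. The mean r over pairs was 0.60, against 0.00 over pairs of all tested genes, and the first component held 64.0% of the variance of the 31. Since 8 group means were removed, the 24 libraries hold 16 free values, and the r are given as descriptions. Without any 1 library the median r lay between 0.53 (without hippocampal control 3) and 0.69. It was 0.50 over the 12 libraries labelled knockout and 0.75 over the 12 controls. By region, over 6 libraries each, it was 0.88 for hippocampus, 0.79 for olfactory bulb and 0.55 for both brainstem and cortex.

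Single libraries showed how closely the set moved. In hippocampal control 1 all 31 genes were above their group mean, and in hippocampal control 3 and olfactory bulb control 3 all were below it. The median deviation was 0.50 in hippocampal control 1, -1.17 in hippocampal control 3 and -0.84 in olfactory bulb control 3, in log2 units. The median deviation of all tested genes in those 3 libraries was between 0.00 and 0.01. In the hippocampal library labelled knockout 3, 3 of 31 were above the group mean, and in the brainstem library labelled knockout 3, 27 of 31 were. The SD between libraries of a group had a median of 0.70 log2 units over the 31 genes and of 0.40 over all tested genes.

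**Figure D2:**
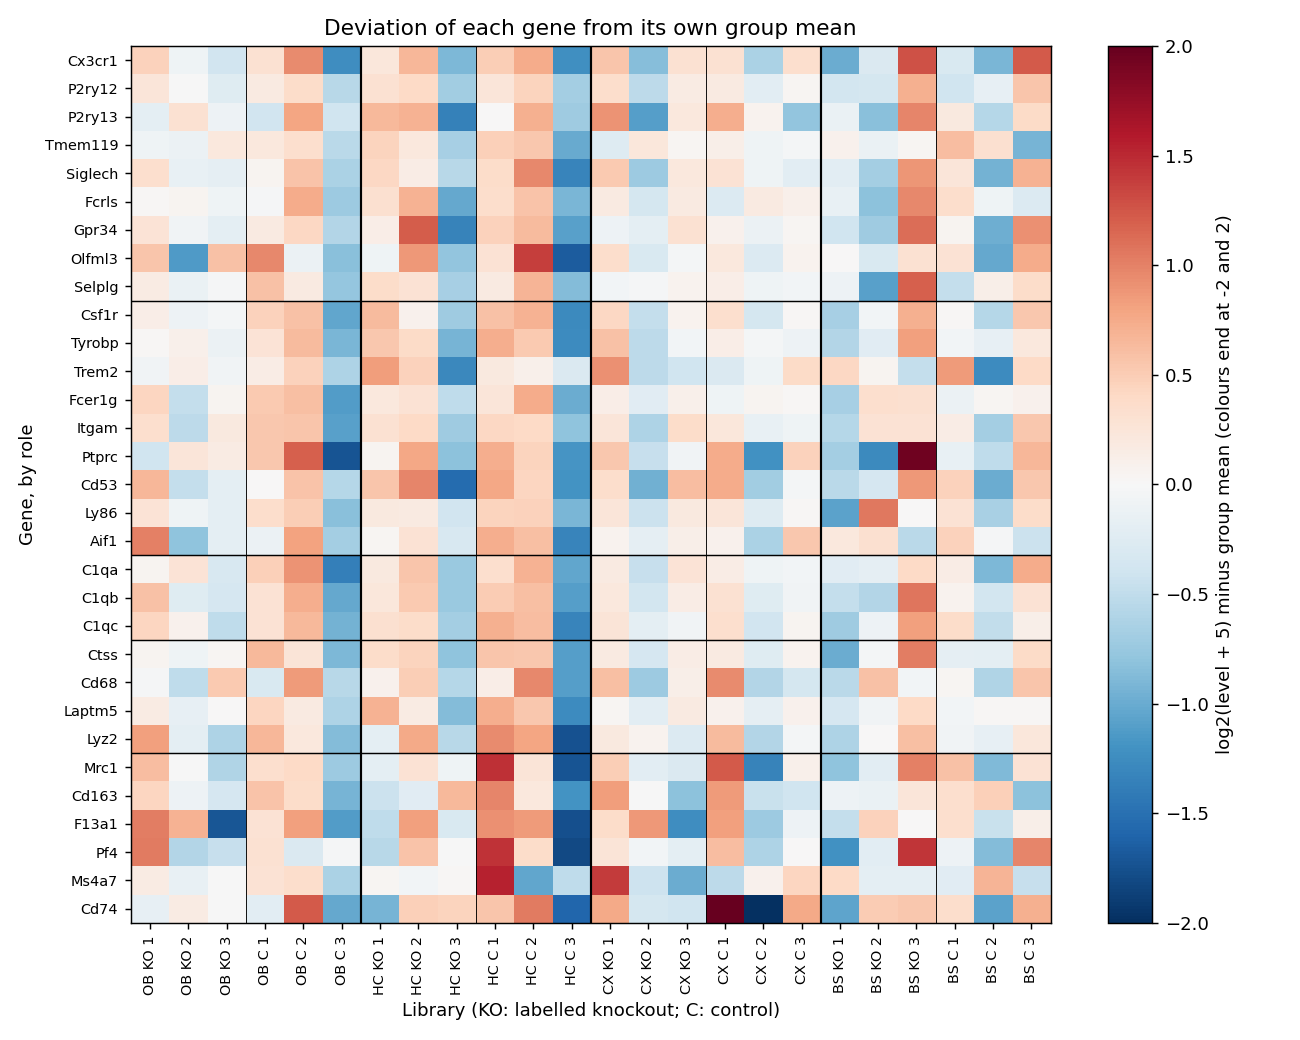
Deviation of log2(level + 5) from the mean of its own group for 31 genes (rows, ordered by role and separated by lines) in 24 libraries (columns, grouped by region with KO for labelled knockout before C for control). Whole columns share a colour, most of all OB C 3 and HC C 3, in which all 31 genes lie below their group mean.

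The core of the set was made of complement and receptor genes. C1qc had an r of 0.96 with the mean of the other 30 genes, Csf1r, the receptor for the survival factors CSF1 and IL-34, of 0.96, C1qb of 0.95 and Tyrobp of 0.94. Cx3cr1, the fractalkine receptor, reached 0.91 and Ctss 0.90. The median over the 31 was 0.83, and 28 were above 0.5. The 3 below were Trem2, the lipid-sensing receptor that signals through Tyrobp, at 0.49, Cd163 at 0.48 and Ms4a7 at 0.18. These are low genes, with a median of 35.5, 32.0 and 3.5 reads per library. The genes with the highest r, from C1qc to Ctss, had medians of 162.5 to 564.5 reads. The order by reads was not strict. Pf4, a chemokine of border macrophages, reached 0.71 with a median of 23.5 reads and C1qa 0.88 with 76.0. The part of read number in the r was not tested.

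**Figure D3:**
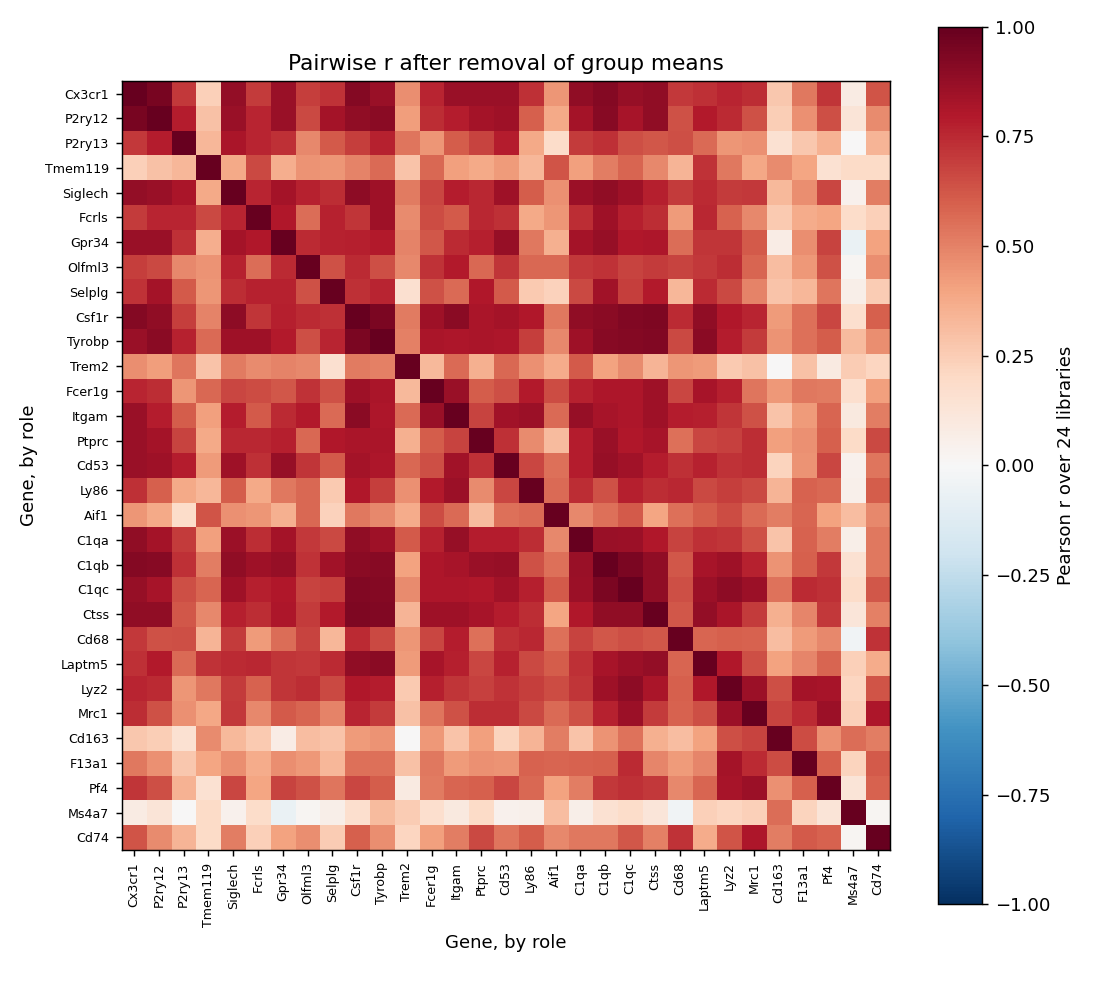
Pearson's r over 24 libraries between each pair of the 31 genes, both axes ordered by role, after removal of group means. Nearly the whole matrix is above 0 (463 of 465 pairs), and the palest rows and columns are those of Ms4a7, Cd163 and Trem2.

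By the same measure the 10 other genes most like the mean profile included Rasgrp3 (r of 0.97), Lpcat2 (0.94), Ttll7 (0.91), Lcp1 (0.90), Elmo1 (0.90), Blnk (0.90), Fyb (0.90) and Tmsb4x (0.89), over 24 libraries. Of these, Lpcat2, Lcp1 and Blnk were on the list of 68 other microglia and phagocyte genes. The mean of the 62 tested genes of that list followed the profile at an r of 0.98 (Spearman's rho 0.97). Other cell types moved with it too. The 14 oligodendrocyte markers followed it at an r of 0.86 (rho 0.85, and 0.79 without hippocampal control 3 and olfactory bulb control 3, the libraries farthest from the median). For 28 dissociation and immediate early genes r was 0.74 (rho 0.70), for 14 neuron markers 0.69 (rho 0.54) and for 12 endothelial markers 0.65 (rho 0.56). The 16 astrocyte markers went the other way, at -0.56 (rho -0.64), and choroid plexus and ependymal markers did not follow it, at -0.02. The r with the log2 of recovered reads was -0.54, the deeper libraries of a group having lower levels, and with the Rn45s share -0.02. What part any of these has in the shared movement was not tested.

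Between genotypes, no gene of the 31 passed the limma test in any region, but in olfactory bulb all 31 had lower fitted values in libraries labelled knockout. The median log2 fold change there was -0.80, against -0.01 over all tested genes. At a Benjamini-Hochberg adjusted p under 0.05, limma called 0 of 31, where it called 0.0862% of all genes (11 of 12759). Unadjusted, 8 of 31 were under 0.05. EdgeR, DESeq2 and limma-voom also called 0, with 12, 12 and 4 under an unadjusted 0.05. The median was -0.57 without control 2 and -1.23 without control 3, the extremes over the 6 libraries left out in turn. By limma, 1 gene was under an unadjusted 0.05 without control 1, 1 without control 2 and 21 without control 3. The share of all genes under an unadjusted 0.05 is not given here, and the 31 genes move together. Unadjusted counts, here and below, are therefore descriptions only.

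Among receptors and signalling genes of olfactory bulb, Aif1, an actin-binding protein that is a classic stain for microglia, had levels of 29.5, 4.84 and 9.99 in libraries labelled knockout, against 50.7, 101 and 32.8 in controls. The groups did not overlap. The limma log2 fold change was -1.82 with an SE of 0.52, and its adjusted p of 0.292 missed the threshold. Trem2 lay at 16.3, 19.4 and 16.2 in libraries labelled knockout, against 41.9, 53.1 and 22.4 in controls. Tyrobp was at 108, 115 and 97.4 in libraries labelled knockout, against 288, 368 and 123 in controls. In both genes the controls lay above the libraries labelled knockout, with control 3 just above them. Csf1r overlapped, at 420.0, 356 and 369.7 in libraries labelled knockout, against 842, 915 and 294 in controls, with control 3 the lowest of the 6.

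The 3 chains of C1q, which tags synapses and debris for removal, followed the same pattern, with a median log2 fold change of -1.22. C1qa was at 43.7, 51.9 and 32.5 in libraries labelled knockout, against 164, 222 and 42.0 in controls. Control 3 lay within the range of the libraries labelled knockout and controls 1 and 2 far above it. The log2 fold change was -1.37 (SE 0.49, limma adjusted p = 0.721). C1qb was at 305, 170.2 and 159.8 in libraries labelled knockout, against 511, 690.5 and 202 in controls. C1qc was at 195, 152 and 98.7 in libraries labelled knockout, against 419.9, 538 and 175 in controls. Both overlapped through control 3.

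Of the lysosomal genes in olfactory bulb, Laptm5, a membrane protein of haematopoietic lysosomes, was at 143, 114 and 129 in libraries labelled knockout, against 357, 301 and 171 in controls (log2 fold change -1.02, SE 0.40, limma adjusted p = 0.829). Ctss was at 244, 222 and 242 in libraries labelled knockout, against 781, 598 and 265 in controls. Neither gene overlapped between groups, and again control 3 was the nearest. The 9 genes known from homeostatic microglia had a median log2 fold change of -0.78, all below 0. Of these, Siglech, a sialic acid lectin, was at 78.3, 54.7 and 53.7 in libraries labelled knockout, against 152, 218 and 92.3 in controls. Gpr34, a lysophosphatidylserine receptor, was at 36.6, 27.7 and 25.0 in libraries labelled knockout, against 86.0, 103 and 48.6 in controls. P2ry12 overlapped, at 464, 389.6 and 329.7 in libraries labelled knockout, against 648, 737 and 385 in controls. The 6 border macrophage and antigen presentation genes had a median of -0.70, all below 0, with overlapping groups.

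In all, 7 of the 31 genes (22.6%) had their 3 libraries labelled knockout below the 3 controls in olfactory bulb, against 6.92% of all genes tested, and 0 lay above, against 7.15% of all genes. They were Aif1, Ctss, Tyrobp, Trem2, Siglech, Gpr34 and Laptm5. Since the genes move together, the 7 are not separate observations. The summed dissociation and immediate early genes lay between 2710 and 2757 in libraries labelled knockout and between 3352 and 6784 in controls, with 0 of 28 called. Oligodendrocyte markers had a median log2 fold change of -0.41, all 14 below 0 and 0 called. The part of either in the lower phagocyte levels was not tested. The lymphocyte sum was at most 12.5 in these 6 libraries.

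**Figure D4:**
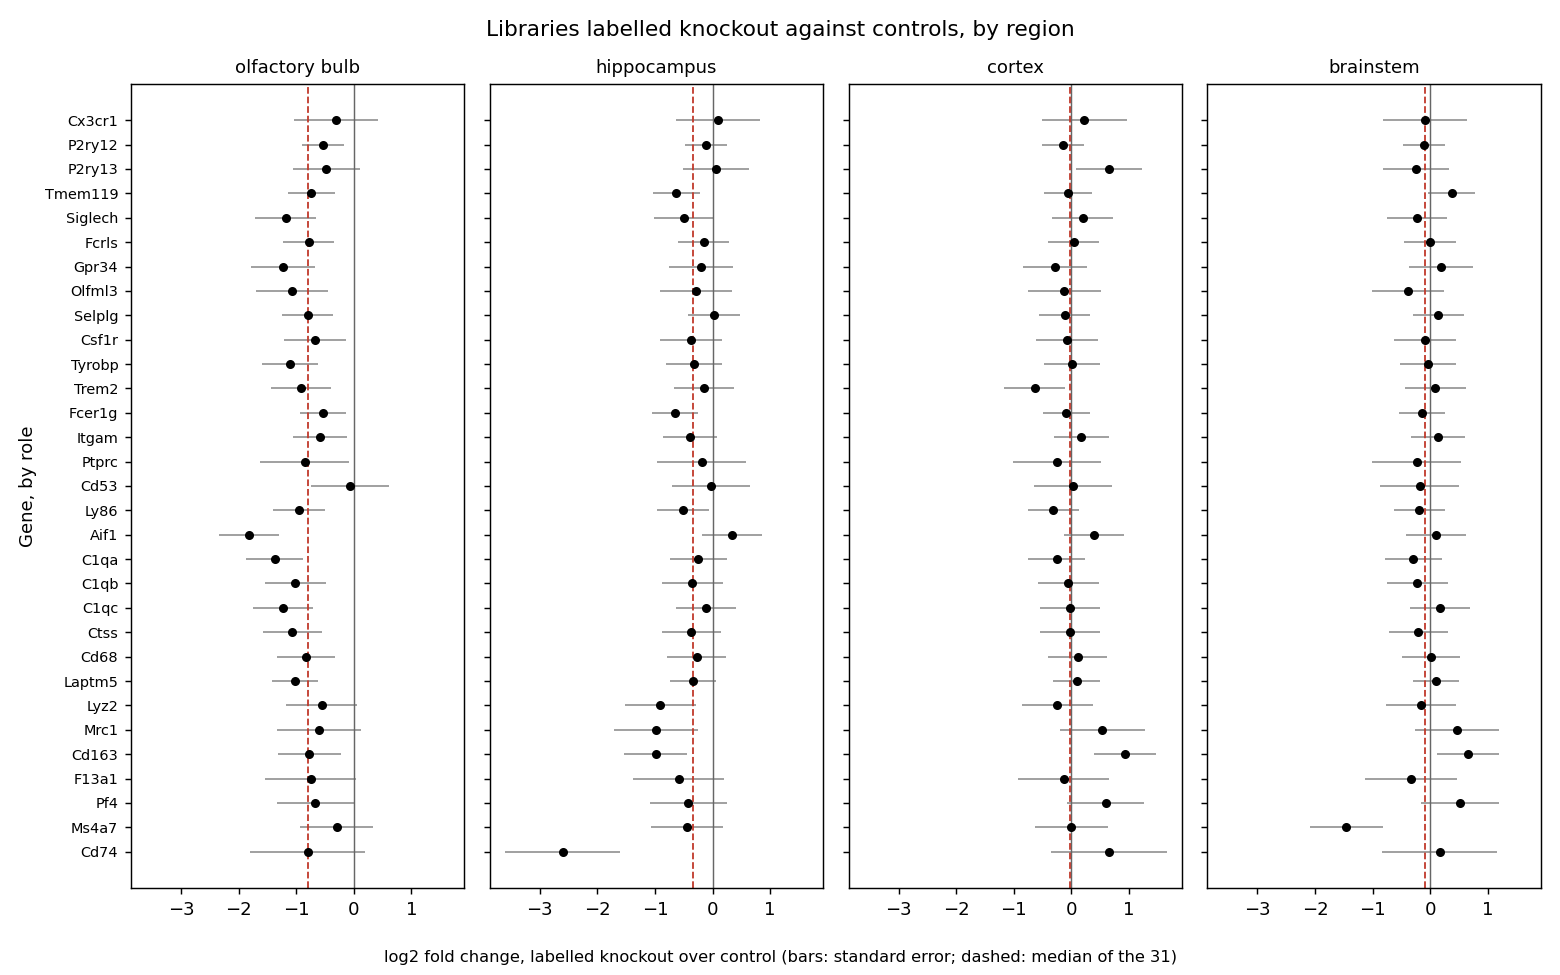
Log2 fold change of libraries labelled knockout over controls for each of the 31 genes (rows, by role) in 4 regions, with bars of 1 standard error from limma and the dashed line at the median of the 31. In olfactory bulb all 31 points lie below 0 (median -0.80), whereas in cortex and brainstem the medians are -0.02 and -0.09, and no point passed the test in any region.

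In hippocampus 27 of 31 genes were below 0, with a median log2 fold change of -0.34. By role, border macrophage and antigen presentation genes had the lowest median. Not each of them was among the lowest, since Pf4 (-0.42) and Ms4a7 (-0.44) lay above the lysosomal gene Lyz2 (-0.90). Limma called 0 of 31, against 2.36% of all genes, and 1 gene was under an unadjusted p of 0.05. EdgeR and limma-voom called 0, with 2 and 0 unadjusted, and DESeq2 called 1, Cd74. Cd74 had levels of 0.835, 10.6 and 10.2 in libraries labelled knockout, against 94.6, 133 and 17.4 in controls. The groups did not overlap, and Cd74 was the 1 gene of the 31 of which this held in hippocampus (3.23%, against 10.4% of all genes), while 0 lay above their controls, against 9.73% of all genes. The log2 fold change was -2.60 (SE 1.00, limma adjusted p = 0.229, and DESeq2 adjusted p = 0.0287).

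Cd163 in hippocampus was at 11.3, 13.9 and 29.6 in libraries labelled knockout, against 81.2, 45.4 and 14.1 in controls (log2 fold change -0.99, SE 0.54, limma adjusted p = 0.451). The mannose receptor gene Mrc1 was at 82.9, 118 and 90.5 in libraries labelled knockout, against 546, 235 and 55.6 in controls. In both genes controls 1 and 2 were high and control 3 was within or below the range of the libraries labelled knockout. The 6 border macrophage and antigen presentation genes had a median of -0.79, all below 0, while the 9 homeostatic genes had a median of -0.15 with 6 below 0. Fcer1g was at 152, 159 and 90.5 in libraries labelled knockout, against 247, 351 and 101 in controls (-0.65, SE 0.40, limma adjusted p = 0.532). The median of the 31 was 0.04 without the library labelled knockout 3 and -0.90 without control 3, where 10 genes were under an unadjusted p of 0.05. The 14 oligodendrocyte markers had a median of -0.75, all below 0 and 0 called. Summed choroid plexus and ependymal markers lay between 3485 and 9146 in hippocampal libraries labelled knockout and between 106338 and 220511 in controls. The summed fibroblast markers lay between 432 and 825 in libraries labelled knockout and between 2189 and 4044 in controls. The part of these cell types in the levels of the phagocyte genes was not tested.

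Dab2, an endocytic adaptor found in border macrophages and in other cells of the brain's borders, fell in hippocampus, the 1 of 17 tested genes of the list of other border macrophage, monocyte and antigen presentation genes to be called. It was at 248, 235 and 201 in libraries labelled knockout, against 1106, 641 and 717 in controls (log2 fold change -1.79, SE 0.25, limma adjusted p = 0.000206). The median of that list was -0.58, with 15 of 17 below 0. The 62 other microglia and phagocyte genes had 0 calls by limma in hippocampus and a median of -0.25, and 0 calls and a median of -0.63 in olfactory bulb. Among 18 tested genes of microglial activation, Cd9, a tetraspanin that astrocytes also express, was the 1 call. In hippocampus it was at 185, 208 and 154 in libraries labelled knockout, against 408, 422 and 280.3 in controls (-0.99, SE 0.25, limma adjusted p = 0.0318). Of 15 signals that act on microglia, Gas6, a ligand of the Axl and Mertk receptors, fell in hippocampus, at 412, 521 and 419 in libraries labelled knockout, against 1020.0, 804 and 1088 in controls (-1.10, SE 0.20, limma adjusted p = 0.00286).

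In cortex the median log2 fold change was -0.02, with 17 of 31 genes below 0. It was -0.16 without control 2, with 22 below 0, and 0.16 without the library labelled knockout 2, with 9 below 0. Limma called 0 of 31, against 0.376% of all genes, and 0 were under an unadjusted p of 0.05. EdgeR, DESeq2 and limma-voom called 0, also with 0 unadjusted. The groups overlapped for each of the 31, where 7.48% of all genes lay below their controls and 7.06% above. Cd163, which had the smallest p, was at 94.3, 50.2 and 26.3 in libraries labelled knockout, against 47.6, 16.4 and 17.0 in controls (log2 fold change 0.93, SE 0.54, limma adjusted p = 0.890). Trem2 (-0.64, SE 0.52, adjusted p = 0.970) and P2ry13, an ADP receptor (0.66, SE 0.58, adjusted p = 0.979), came next. Cd74 was at 93.2, 40.5 and 39.0 in libraries labelled knockout, against 158, 0 and 57.2 in controls. Control 2 had 0 reads of it, where 3 reads would be a level of 3.78. Cd9 fell in cortex as well (-1.20, SE 0.25, limma adjusted p = 0.0256).

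In brainstem the median log2 fold change was -0.09, with 18 of 31 genes below 0. It was -0.45 without the library labelled knockout 3, with 26 below 0, and 0.19 without the library labelled knockout 1, with 8 below 0. In limma-voom it was -0.40, with 25 below 0. Limma called 0 of 31, against 0.666% of all genes, and 1 gene was under an unadjusted p of 0.05. EdgeR, DESeq2 and limma-voom called 0, with 0, 1 and 0 unadjusted. Ms4a7 was at 2.57, 0 and 0 in libraries labelled knockout, against 8.51, 20.2 and 6.43 in controls, the 1 gene (3.23%, against 5.65% of all genes) below all controls. In the library labelled knockout 3, the shallowest of the series, 3 reads would be a level of 17.2, so that this order was not detectable at its depth. The fitted log2 fold change was -1.45 (SE 0.63, limma adjusted p = 0.271). Cd163 lay above all controls (1 gene, 3.23%, against 5.42% of all genes), at 57.8, 56.1 and 74.3 in libraries labelled knockout, against 49.0, 54.6 and 19.3 in controls (0.65, SE 0.54, limma adjusted p = 0.617). Tmem119, a surface protein that separates microglia from other macrophages, was at 47.5, 40.0 and 45.7 in libraries labelled knockout, against 53.2, 42.5 and 15.0 in controls (0.37, SE 0.41, limma adjusted p = 0.733). The sign for Tmem119 turned without control 3.

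Averaged over the 4 regions, 30 of 31 genes were below 0 and the median log2 fold change was -0.31. It was -0.22 without the hippocampal library labelled knockout 3 and -0.46 without hippocampal control 3. Oligodendrocyte markers had a median of -0.30, 14 of 14 below 0 and 1 called, Cnp, and their part was not tested. Limma called 0 of 31, against 5.75% of all genes, and 2 were under an unadjusted p of 0.05. EdgeR, DESeq2 and limma-voom called 0, with 3, 7 and 2 unadjusted. The smallest p were those of C1qa (-0.54, SE 0.25, limma adjusted p = 0.231), Ly86 (-0.49, SE 0.22, adjusted p = 0.234) and Ms4a7 (-0.55, SE 0.32, adjusted p = 0.376). C1qa passed when olfactory bulb control 3 was left out (adjusted p = 0.0478). Among related genes, Gas6 (-0.64, limma adjusted p = 0.000174), Dab2 (-0.74, adjusted p = 0.000582) and Cd9 (-0.72, adjusted p = 0.00069) fell. Axl, a receptor for Gas6 (0.46, limma adjusted p = 0.00937), and Sall1, a transcription factor of microglia that stood here at 178 to 801 (0.50, adjusted p = 0.0135), rose. Sall1 was the 1 call among the 62 other microglia and phagocyte genes, against 5.75% of all genes.

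Whether the genotype effect differed among regions was asked with an F test. Limma called 0 of 31 genes, against 0.0705% of all genes, with 2 under an unadjusted p of 0.05. EdgeR, DESeq2 and limma-voom called 0, with 2, 2 and 1 unadjusted. The smallest were Aif1 (unadjusted p = 0.0152, limma adjusted p = 0.532) and Cd163 (unadjusted p = 0.0370, limma adjusted p = 0.636). The lower levels in olfactory bulb are thus not shown to be particular to that region.

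Between control regions, P2ry12 was the 1 gene of the 31 that passed the limma test. This receptor draws microglial processes to sites of ATP and ADP release, and it was lower in brainstem. In brainstem controls it was at 186, 221 and 366, against 648, 737 and 385 in olfactory bulb, 766, 889 and 403 in hippocampus, and 539, 409 and 489 in cortex. All 3 brainstem controls lay below the 9 others, brainstem control 3 close below olfactory bulb control 3. The log2 difference of brainstem from the mean of the other 3 regions was -1.17 (SE 0.30, limma adjusted p = 0.00841). That call was 1 of 31 genes, against 17.6% of all genes, and edgeR, DESeq2 and limma-voom also called P2ry12 and no other of the 31. It was lost without brainstem control 1 (adjusted p = 0.0963). An F test over the 4 control regions also called P2ry12 (limma adjusted p = 0.0289) and no other of the 31, against 23.5% of all genes. That call was lost without either hippocampal control 1 or 2, or brainstem control 1 or 2, the highest adjusted p being 0.185. Tmem119 came next in the F test, with a limma adjusted p of 0.0528, and it passed under several of the alternatives given at the end.

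P2ry12 also made up a smaller part of the set in brainstem, a description chosen after its levels were seen. As a percentage of the summed level of the 31 genes it was 5.49, 3.70 and 4.58 in brainstem libraries labelled knockout and 3.48, 5.75 and 5.44 in brainstem controls. In the 18 libraries of the other regions it was between 6.83 and 13.5. None of the other 30 genes had a share whose range in brainstem stood clear of that in the other regions. Csf1r, for comparison, took 10.8% to 13.3% in brainstem and 9.87% to 15.5% elsewhere. The level of P2ry12 itself in brainstem libraries labelled knockout, 177, 179 and 377, was close to that of the controls.

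The 8 other homeostatic genes had log2 differences between -1.05 (Gpr34) and -0.22 (P2ry13) in brainstem controls, and 0 of them passed. Tmem119 was at 53.2, 42.5 and 15.0 in brainstem controls, against 76.0, 83.7 and 43.1 in olfactory bulb, 134, 141 and 44.9 in hippocampus, and 48.7, 41.6 and 43.3 in cortex (-0.88, SE 0.34, limma adjusted p = 0.0701). Its values in brainstem and cortex overlapped. Gpr34 differed by -1.05 (SE 0.45, limma adjusted p = 0.114). The 6 border macrophage and antigen presentation genes lay on the other side, with a median of 0.43 and 0 below 0, and 0 called. Choroid plexus and ependymal markers were higher there too, 9 of 11 called, and fibroblast markers, 3 of 8 called, and their part in the border macrophage levels was not tested. Summed as a percentage of the 31 genes, the 9 homeostatic genes took 10.9 to 19.0 in brainstem libraries. In the other 18 libraries they took 20.1 to 30.1. That gap rests on P2ry12, which is among the 9. It made up 5.49 of the 19.0 in the brainstem library labelled knockout 1 and 7.49 of the 20.1 in cortical control 1. Without P2ry12 the ranges of the homeostatic genes overlapped. The 4 lysosomal genes took 24.6 to 32.8 in brainstem against 16.6 to 22.6 elsewhere. Lyz2, which is among the 4, made up 7.49 of the 24.6 in brainstem control 1. It made up 1.66 of the 19.8 in the hippocampal library labelled knockout 1. Without Lyz2 the ranges of the lysosomal genes overlapped. Over all 31 genes the median difference of brainstem was -0.31 with 20 below 0, and without brainstem control 2 it was 0.06 with 14 below 0. Oligodendrocyte markers were higher in brainstem controls, 12 of 14 called with a median log2 difference of 1.46, and their summed level was 56614 to 97268 there, against 10327 to 43774 in the other control libraries. The part of oligodendrocyte RNA in the P2ry12 difference was not tested. The Rn45s shares of brainstem controls 1 and 3 lay above those of all cortical controls (19.0% to 20.9%), and that of brainstem control 2 lay below them. The part of the Rn45s share in the P2ry12 difference was not tested.

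**Figure D5:**
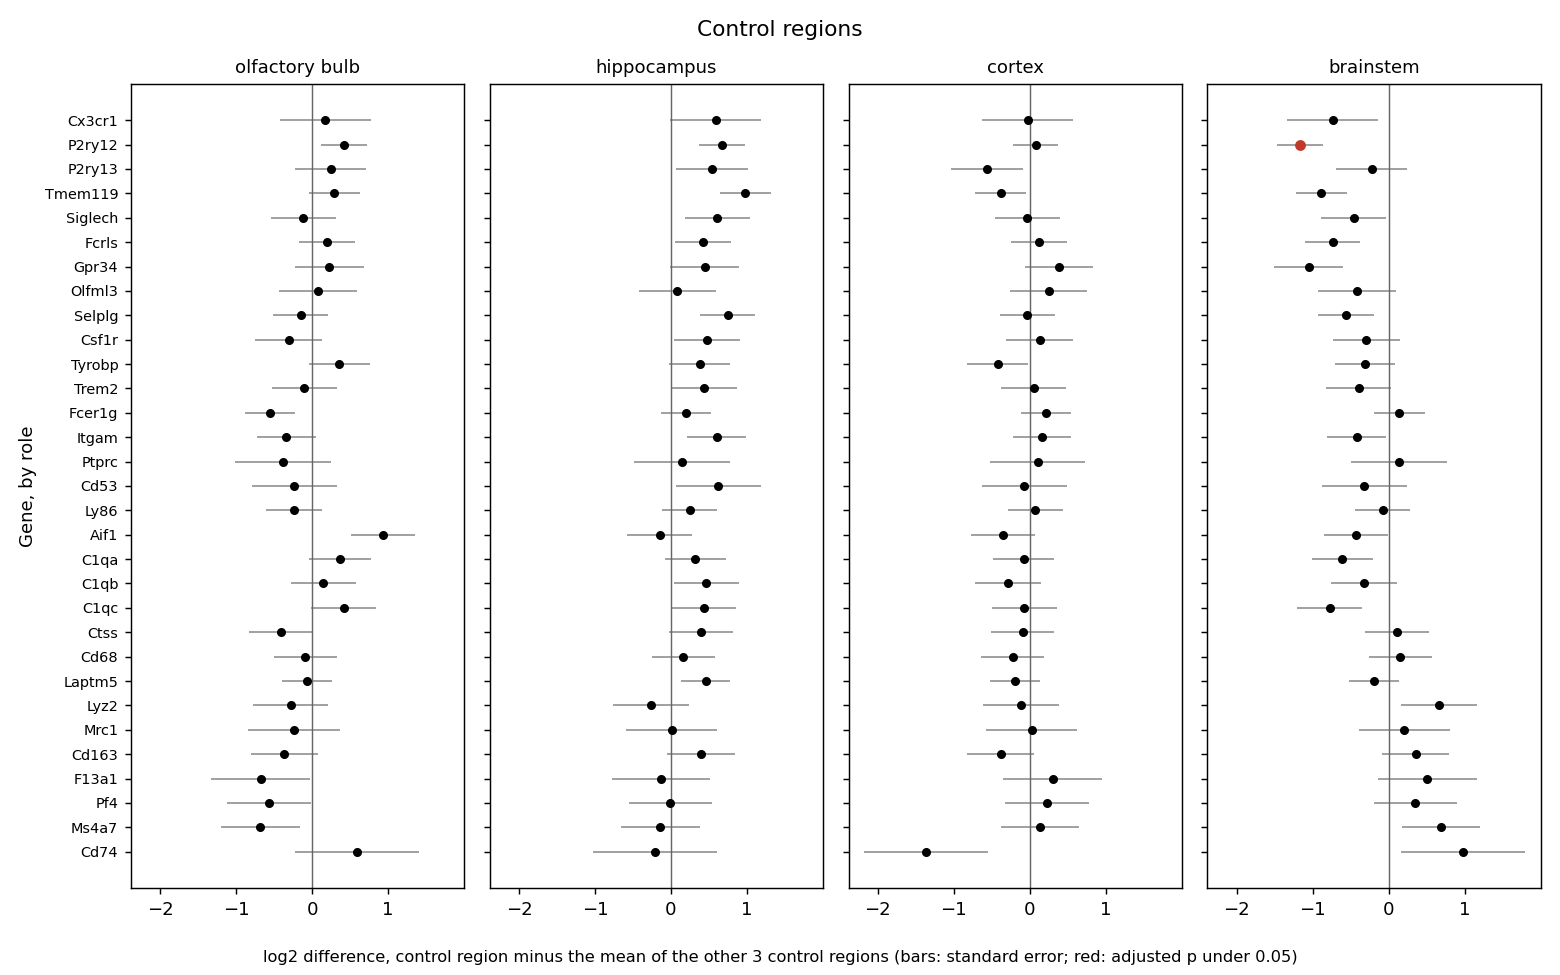
Log2 difference of each control region from the mean of the other 3 control regions for the 31 genes (rows, by role), with bars of 1 standard error from limma. The red point, P2ry12 in brainstem at -1.17, is the 1 difference with an adjusted p under 0.05.

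The hippocampus had the highest controls for many of the genes, with a median log2 difference of 0.40 and 25 of 31 genes above 0. Limma called 0 of 31, against 2.86% of all genes, with 3 under an unadjusted p of 0.05. EdgeR called 0 with 5 unadjusted, whereas DESeq2 and limma-voom each called 1, Tmem119. Tmem119 differed by 0.98 (SE 0.34, limma adjusted p = 0.129), P2ry12 by 0.67 (SE 0.30, adjusted p = 0.312) and Selplg, a selectin ligand, by 0.74 (SE 0.36, adjusted p = 0.369). Hippocampal control 3 was low for all 31 genes, and without it the median was 0.92, with Tmem119 (limma adjusted p = 0.0248) and Laptm5 called.

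Olfactory bulb and cortical controls stood closer to the others. In olfactory bulb the median was -0.10, with 18 of 31 genes below 0. It was -0.33 without olfactory bulb control 2, 0.23 without olfactory bulb control 3, with 4 below 0, and -0.36 in limma-voom. Here limma called 0 of 31, against 14.2% of all genes, with 1 under an unadjusted p of 0.05. The smallest p were those of Aif1 (0.93, SE 0.42, limma adjusted p = 0.158), Fcer1g (-0.56, SE 0.33, adjusted p = 0.315) and P2ry12 (0.42, SE 0.30, adjusted p = 0.428). In cortex the median was -0.03, and it lay between -0.25 (without hippocampal control 3) and 0.10 (without cortical control 2) with a library left out. In cortex limma called 0 of 31, against 6.83% of all genes, with 0 under an unadjusted p of 0.05. Cd74 (-1.37, SE 0.82, limma adjusted p = 0.393), P2ry13 (-0.56, SE 0.47, adjusted p = 0.574) and Tmem119 (-0.38, SE 0.34, adjusted p = 0.594) came first. EdgeR, DESeq2 and limma-voom called 0 in both regions, with 1, 1 and 2 unadjusted in olfactory bulb and 0 each in cortex. The order of mean P2ry12 levels in controls was hippocampus at 686 ± 253, olfactory bulb at 590.2 ± 183, cortex at 479 ± 65.1 and brainstem at 258 ± 95.7 (SD, n = 3), and the ranges of the 3 higher regions overlapped.

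Some genes of the related lists, several of which astrocytes also express, differed between control regions as well. In brainstem, Sall1 (log2 difference -0.89), Golm1 (-0.90) and Itgb5 (-0.49) were lower. They were 3 of the 62 other microglia and phagocyte genes, where limma called 17.6% of all genes, and 0 of the 62 were called higher. Of the 18 activation genes, Apoe, the lipid carrier (-0.99), and Axl (-0.80) were lower in brainstem and Fth1, a ferritin chain (1.23), and Lpl, a lipase (2.14), were higher. Of 15 signals, Cd47, the phagocytosis checkpoint ligand, was lower (-1.06, SE 0.13, limma adjusted p = 5.67e-07), as was Tgfb2 (-0.57), while Gas6 (0.90), Tgfb3 (1.26) and C3 (1.73) were higher. Dab2 was also higher (1.08, SE 0.21, limma adjusted p = 0.000414).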

How the data were processed

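Each library has its own deposited table of signal, a normalised read count per gene name, for which the submitters' processing notes list FastQC, STAR 2.5.0a, DESeq2 1.20.0 and mm10. The counting tool, annotation and strand are not given in the sources used here. Libraries were made from total RNA with the Trio RNA-Seq system, per the labels' protocols. Multiplied by a single factor for its library, every deposited signal came out whole to within 0.01 read. The 6 cortical factors had been set on those libraries alone and stood at 1.26 to 1.27 times joint factors, against 0.994 to 0.998 for the other 18. Recovered reads were therefore rescaled with joint median-of-ratios factors over 24 libraries (11534 genes).

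Log2(level + 5) was fitted in limma 3.58.1 (R 4.3.3; trend, robust) with 1 mean per group and 16 residual degrees of freedom. Genes at 20 or more in at least 3 libraries were tested, two-sided, with Benjamini-Hochberg adjustment over all 12759 within each contrast and a threshold of 0.05. Adding 5 reduces the fold changes of low genes. The fit was tested on simulated data. Alternatives were other added constants, filters and scalings, edgeR 4.0.16, DESeq2 1.42.0, sample-weighted limma-voom, blocks by replicate number, single regions or control libraries alone, and each library left out.

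The 31 genes, their roles and the other lists were chosen with earlier results of these data known. Full statistics are given for genes called in a contrast or, with fewer than 3, the 3 smallest p, and for up to 4 called genes per related list. Symbols were matched to GENCODE vM21 models for exon length. A binomial 95% interval (Wilson) covers counting error only. Some genes that the rules name are not reported here.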

Additional observations from a re-analysis of the deposited data

How the results depend on the processing

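The 0 calls in olfactory bulb, cortex and brainstem between genotypes, in the F test over regions, and in olfactory bulb and cortical controls stood under every alternative run. In hippocampus DESeq2 gave 1 call. The genotype average gave 0 to 1 with a library left out. For control hippocampus the count was 1 with DESeq2 and 1 with limma-voom, and 0 to 2 with a library left out. For control brainstem it was 2 with the replicate block (P2ry12 and Tmem119) and 1 to 4 with a library left out. The F test over control regions gave 2 calls, P2ry12 and Tmem119, with an added constant of 20, TMM scaling, edgeR with TMM or RLE factors, limma-voom, the replicate block and a correlation within genotype and number, 0 to 3 with a library left out, and 0 when reads were thinned to 1090777 per library, an alternative chosen after seeing the data. The cause of these shifts was not tested. Same-numbered libraries of a region correlated above 0.1 in 5 of 12 pairs (median r 0.06). Differently numbered libraries of a region did so in 2 of 24 pairs (median r -0.04). Whether a number marks something shared cannot be told from the labels. The numbers were not taken to pair libraries, and the block values here are alternatives only. The block was set by number over all regions together, so that a pairing of libraries within a region was not fitted. The signs of Tmem119 in brainstem between genotypes (log2 fold change -0.09 without control 3, adjusted p 0.575 to 0.954 with a library left out) and of Cd74 in control cortex (0.08 without control 2, adjusted p 0.0872 to 0.980 with a library left out) turned. The median pairwise r was 0.58 with group means kept, and 0.53 to 0.69 with a library left out, also chosen after seeing the data. Calls over all genes, apart from libraries left out, ranged from 11 to 76 in olfactory bulb, 185 to 638 in hippocampus, 27 to 133 in cortex, 0 (brainstem fitted alone) to 134 in brainstem, 536 to 1003 for the average and 0 to 85 for the F test. For control regions they ranged from 1445 to 2118 in olfactory bulb, 243 to 617 in hippocampus, 623 to 1273 in cortex, 1856 to 2448 in brainstem and 2425 to 3473 for the F test. Ms4a7, Pf4, Aif1, Cd163 and Trem2 had the fewest reads.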
